A study of Rattus norvegicus with 10 samples.

Results

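Molecular chaperones and folding enzymes were described in cultured rat Sertoli cells treated with follicle-stimulating hormone (FSH). They were taken by name: every probe set annotated to a single gene whose symbol starts with Hsp, Dnaj, Pdia, Fkbp or Cct followed by a digit, or is Calr, Canx, P4hb, Ppia or Ppib, with the testis-enriched Hspa2 left out. This gave 82 of 8740 probe sets, for 41 of 4736 genes with a probe set of their own, split by the known site of the protein into 43 cytosolic, 31 endoplasmic reticulum (ER) and 8 mitochondrial probe sets. A further 14 probe sets were annotated to several genes, at least 1 of them a chaperone of the rule, and were not used. No probe set was annotated to Ppia, Hspa8, Hspa1b or Hsp90aa1 alone, so these genes are not among the members.

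The cells came from 20-day-old rats and were studied in vitro. Groups were untreated cells at 0 h and cells given FSH for 2, 4, 8 and 24 h, with 2 arrays at each of the 5 times, numbered replicate 1 and replicate 2. Neither the FSH dose nor the culture conditions were given in the sources used here. The title of control replicate 1 says control and gives no time, and this array was taken as 0 h. No array is labelled as untreated cells after 0 h, so FSH and time in culture cannot be told apart. Whether the numbered arrays came from separate cultures is not stated, so each p-value measures the spread between these arrays, which may be technical.

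Chaperones bind proteins that are not yet folded, or that have lost their fold, and release them in cycles driven by ATP and by co-chaperones. In the cytosol the Hsp70 and Hsp90 proteins, their J-domain (Dnaj) partners and the ring-shaped CCT complex do this work. In the ER, Hspa5 (BiP), Hsp90b1 (GRP94), the lectins calnexin and calreticulin and the protein disulfide isomerases fold secreted and membrane proteins, which Sertoli cells make in large amounts. In mitochondria, imported proteins pass from Hspa9 (mortalin) to the Hspd1 and Hspe1 chamber. Misfolded protein in the cytosol is known to induce genes through heat shock elements, and in the ER through ER stress elements, while FSH acts on Sertoli cells largely through cyclic AMP.

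Intensities are the deposited values, scaled here so that every array had the same 75th percentile, 107, and log2 changes were taken after setting values under 13.4 to that floor. Of the 82 probe sets, 71 (36 genes) had a mean of at least 31.9 over the 10 arrays and were tested with limma among 4439 probe sets. Log2 changes carry the standard error, and adjusted p-values are limma's with Benjamini-Hochberg adjustment over all 4439.

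The Sertoli label was checked first. The summed intensity of 9 Sertoli marker genes ranged over 12086 to 16919 in replicate 2, against 18362 to 23376 in replicate 1, and Clu, which encodes the secreted glycoprotein clusterin, was above the floor on all 10 arrays. Sums for Leydig cell, endothelial and macrophage markers stayed between 38.4 and 126. The sum of 15 germ cell marker genes was 2840 to 4168 in replicate 2, against 520 to 1988 in replicate 1. That list holds Crem, which FSH induces in Sertoli cells too, and the member Hspa1l. The late spermatid markers Tnp2 and Odf1 were under the floor on all 10 arrays. In the same germ cell list, however, Tnp1 was under it on 2 arrays, and Prm2 and Acr on 0. The sum of 6 peritubular myoid markers was 2033 on 24 h replicate 1, against 204 to 688 on the other 9 arrays. The beta-actin 3′ to 5′ ratio, a measure of RNA integrity, was 1.48 to 1.76 in replicate 2, against 0.928 to 1.17 in replicate 1.

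None of the 71 tested chaperone probe sets passed an adjusted p of 0.05 at any time. At 2 h the limma count was 0 of 71 (background 0.676% of all tested), with 2 at an unadjusted p under 0.05. At 4 h it was 0 (background 0.856%), with 2 unadjusted, and at 8 h 0 (background 0.766%), with 6 unadjusted, all of them higher (background 6.31% higher). At 24 h it was 0 (background 0.0%), with 1 unadjusted, and between 24 and 8 h 0 (background 0.225%), with 2 unadjusted (background 6.49%). The F test over all times also called 0 (background 0.991%), with 1 unadjusted (background 7.39%). Fitting the replicate number as a block left all of these counts at 0 (background 1.22% at 2 h, 2.95% at 4 h, 2.68% at 8 h, 0.0901% at 24 h, 1.15% between 24 and 8 h and 3.22% in the F test). The unadjusted shares, 2.82%, 2.82%, 8.45% and 1.41% of members at 2, 4, 8 and 24 h, stood beside 4.57%, 7.75%, 9.3% and 4.6% of all tested probe sets. Of the 71, 8 had a mean under 31.9 at 1 time or more and so were tested through their other times. They held 1, 2 and 2 of the unadjusted calls at 2, 4 and 8 h and the 1 in the F test. The median standard error of a member's log2 change was 0.42, so a change of that size lay within the error of 2 arrays a time.

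Over all 10 arrays the chaperones varied by a median of 2.34-fold between their lowest and highest array, against 2.75-fold for all tested probe sets. Of the 71, 23 (32.4%) stayed within a 2-fold range, against 20.4% of all tested. The compartments differed, with a median of 2.16-fold for cytosolic and 2.32-fold for ER probe sets. For mitochondrial probe sets it was 3.26-fold, wider than that of all tested. Within the 2-fold range were 12 of 36 cytosolic, 10 of 27 ER and 1 of 8 mitochondrial probe sets. These lists were not matched for intensity. The narrowest ranges belonged to a probe set of Fkbp4, the immunophilin of steroid receptor complexes (rc_AI231547_at, 1.49-fold), to the small heat shock protein Hspb2 (U75899mRNA_g_at, 1.54-fold) and to a probe set of Hspa5 (M14050_s_at, 1.58-fold). The other tested Hspa5 probe set, S63521_i_at, had a 3.32-fold range, and those of Fkbp4 had 2.02-fold and 2.73-fold. The other Hspb2 probe set was under the floor on all 10 arrays and was not tested. The widest belonged to Hspa1a (Z75029_s_at, 9.32-fold), Dnaja4 (AA848268_at, 8.51-fold), Dnajb9 (rc_AI011998_at, 7.01-fold) and Dnaja3 (S81433_at, 6.86-fold). The lowest Dnaja4 array there was set to the floor, and its other probe set had a 2.71-fold range.

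The compartments were also described apart, with each probe set counted, also where 1 gene had several. The median log2 change of the 36 cytosolic probe sets (18 genes) was 0.02, -0.03, -0.13 and -0.03 at 2, 4, 8 and 24 h. Over all tested it was -0.02, -0.03, -0.02 and 0.02. For the 27 ER probe sets (14 genes) it was 0.24, 0.06, 0.30 and 0.40. At 24 h 25 of the 27 lay above 0, where the median of all tested was 0.02. For the 8 mitochondrial probe sets (4 genes) the median log2 change was 0.35, 0.40, 0.49 and 0.46. Single arrays moved these medians, control replicate 1 those of the ER and mitochondria at every time. Control replicate 1 was the lowest of the 10 arrays for 11 of 27 ER probe sets (40.7%), against 14.0% of all tested, and its median deviation from the probe set means was -0.33 for ER and -0.47 for mitochondrial members, beside 0.04 for all tested. Without control replicate 1 the ER medians were -0.03, -0.04, 0.02 and 0.16, with 19 of 27 above 0 at 24 h, and the mitochondrial ones 0.06, 0.13, 0.30 and 0.19. Without control replicate 2 the ER medians were 0.43, 0.28, 0.53 and 0.46. Without 24 h replicate 2 the 24 h median was 0.23 for ER and 0.14 for mitochondrial members. The ER median at 2 h was 0.12 without 2 h replicate 1, and the mitochondrial one at 4 h was 0.21 without 4 h replicate 1. The cytosolic median turned to 0.14 at 4 h without 4 h replicate 2 and to 0.06 at 8 h without 8 h replicate 1. With quantile normalization the ER medians were 0.12, -0.06, 0.10 and 0.24. The ER median at 8 h was 0.17 with a filter of 2 times the pooled median and 0.16 with no filter, where that at 2 h was 0.10. Taken within each array number, the ER medians were 0.41, 0.19, 0.47 and 0.42 in replicate 1. In replicate 2 they were 0.02, -0.07, 0.14 and 0.20. The numbers agreed in sign for 6, 3, 14 and 16 of the 27 ER probe sets (22.2%, 11.1%, 51.9% and 59.3%). Over all tested they agreed for 40.2%, 45.1%, 54.4% and 52.1%.

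**Figure D1:**
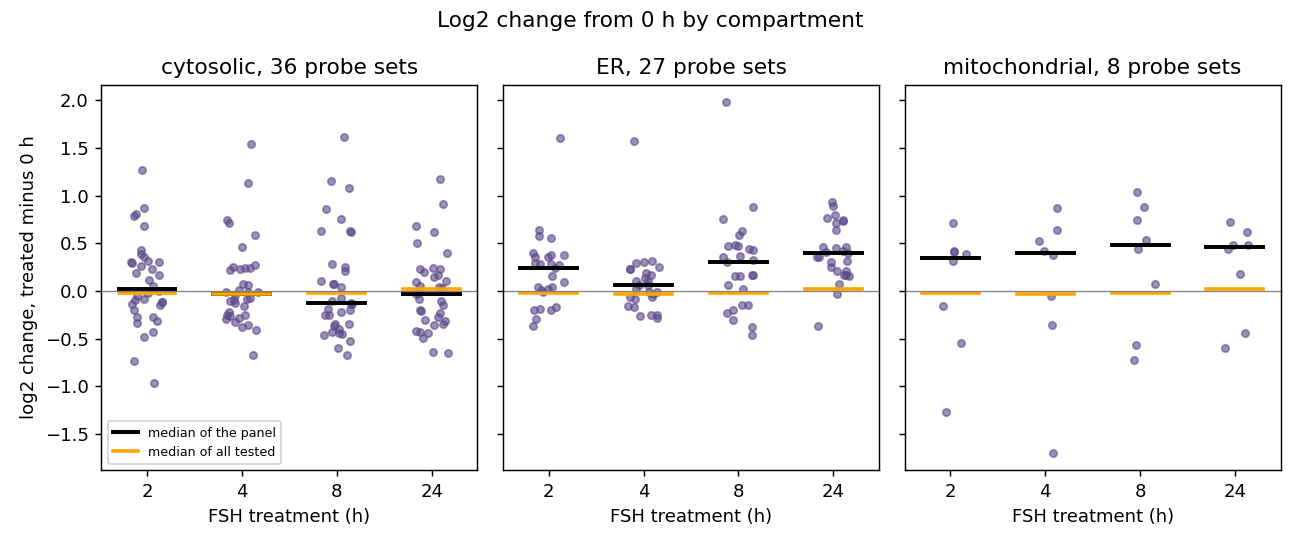
Log2 change from 0 h (vertical axis) at each time of FSH treatment (horizontal axis) for the tested chaperone probe sets, 1 point each, in 3 panels by compartment. Black bars are the panel's median and orange bars the median of all 4439 tested probe sets. The black bars of the ER panel stand at 0.24, 0.06, 0.30 and 0.40, those of the cytosolic panel between -0.13 and 0.02.

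Counted by arrays, 12 members had both 2 h arrays above both controls (background 11.8%) and 4 had both below (background 12.3%). At 4 h the counts were 10 higher (background 15.0%) and 5 lower (background 13.0%). At 8 h they were 20 higher, or 28.2% of members (background 17.7%), and 8 lower (background 17.2%). At 24 h they were 18 higher, or 25.4% (background 15.8%), and 6 lower (background 13.3%). The 20 at 8 h were 8 cytosolic, 8 ER and 4 mitochondrial probe sets, and the 18 at 24 h were 6, 9 and 3. All of these comparisons share the same 2 control arrays. The higher counts include Hspa13 (AF006617_at) at 2, 4 and 8 h and Dnaja4 (AA848268_at) at 2, 8 and 24 h. These passed the filter through treated arrays, their means at 0 h being 12.1 and 18.7. Their part in the counts is not read as support.

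The cytosolic chaperones are given by class, beginning with the J-domain co-chaperones and the Hsp70-type proteins. Dnaja4, a J-domain partner of Hsp70, had intensities of 26.7 and 10.7 at 0 h, 66.9 and 31.3 at 2 h, 114 and 26.5 at 4 h, 66.96 and 50.4 at 8 h and 47.97 and 38.1 at 24 h with probe set AA848268_at (replicate 1 first). Both arrays lay above both controls at 2, 8 and 24 h, and at 4 h replicate 2 fell just short of control replicate 1. The log2 change at 8 h was 1.62 ± 0.71 (n = 2 arrays each), and control replicate 2 lay under the floor. This probe set reached the mean of 31.9 through the treated arrays, its mean at 0 h being 18.7, so its test is not read as support, and it was not called. Its other probe set, rc_AA799570_at, had 39.5 and 42.1 at 0 h, 85.7 and 49.6 at 2 h, 105 and 42.8 at 4 h, 107 and 69.2 at 8 h and 52.7 and 43.2 at 24 h, and both arrays at every treated time were above both controls. Its largest log2 change was 1.08 ± 0.49, also at 8 h (adjusted p = 0.555, limma). Replicate 1 was the higher of the pair at every treated time with both probe sets.

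Hspa4, an Hsp110-type nucleotide exchange factor for Hsp70, had 45.9 and 57.1 at 0 h, 108 and 74.01 at 2 h, 72.7 and 101 at 4 h, 158 and 81.9 at 8 h and 41.8 and 65.6 at 24 h (AF077354_g_at). All treated arrays to 8 h lay above both controls, while the 24 h arrays fell on either side of them. The log2 change was 1.15 ± 0.43 at 8 h (95% interval 0.18 to 2.12, adjusted p = 0.418, limma) and 0.03 at 24 h, and 24 h was -1.12 from 8 h (adjusted p = 0.649, limma). The other probe set, AF077354_at, had 20.6 and 47.2 at 0 h, 45.01 and 32.5 at 2 h, 32.9 and 29.7 at 4 h, 57.7 and 47.8 at 8 h and 15.5 and 31.8 at 24 h.

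Dnajb1 (Hsp40), the classical heat-inducible partner of Hsp70, had 349 and 257 at 0 h, 559 and 533 at 2 h, 521 and 388 at 4 h, 349 and 344 at 8 h and 330.1 and 287 at 24 h with rc_AA945704_at. Both 2 h and both 4 h arrays exceeded both controls, and those at 24 h lay between them. The log2 change at 2 h was 0.87 ± 0.32 (95% interval 0.14 to 1.59, adjusted p = 0.797, limma). With rc_AA859648_at it was 0.31 ± 0.32 at 2 h and -0.32 at 24 h, where both arrays lay below both controls.

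Dnaja1, a farnesylated J-domain protein of the cytosol, had 87.2 and 88.5 at 0 h, 126 and 105 at 2 h, 118 and 90.9 at 4 h, 120.5 and 212 at 8 h and 84.6 and 124.9 at 24 h with rc_AA800551_at. The 8 h replicate 2 array stood highest, and both arrays at 2, 4 and 8 h exceeded both controls. The log2 change at 8 h was 0.86 ± 0.37 (adjusted p = 0.517, limma), while the second probe set, U53922_at, gave 0.08. Dnajb5, another J-domain protein, had a log2 change of -0.27 at 2 h and -0.43 at 24 h, with both arrays below both controls at those times. Dnajc5, the cysteine string protein, which chaperones proteins of exocytosis, differed between its probe sets at 24 h by over 1 log2 unit: 0.69 with rc_AA859806_at and -0.42 with U39320_at.

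Hspa1a, the stress-inducible Hsp70, has a near-identical copy in Hspa1b, and the array's probes may not part them. Its probe set had 78.6 and 61.3 at 0 h, 172 and 83.7 at 2 h, 275 and 84.1 at 4 h, 171 and 67.6 at 8 h and 141 and 29.5 at 24 h. Both arrays at 2 and 4 h lay above both controls, and replicate 1 was the higher at every time. The log2 change at 4 h was 1.13 ± 0.82, with a 95% interval of -0.72 to 2.98 (adjusted p = 0.985, limma). Hsph1 (Hsp105), a nucleotide exchange factor induced by heat, had 91.6 and 69.8 at 0 h, 123 and 93.6 at 2 h, 112 and 77.6 at 4 h, 59.8 and 88.5 at 8 h and 79.8 and 71.4 at 24 h, with both 2 h arrays above both controls and a log2 change of 0.42 ± 0.36 (95% interval -0.38 to 1.23).

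Hspb1 (Hsp27), a small heat shock protein that binds unfolded clients and actin, was read by 4 probe sets, all with negative estimates at 8 h (-0.60 to -0.35) and at 24 h (-0.44 to -0.24), none of them called. M86389cds_s_at had 457 and 276 at 0 h, 351 and 455 at 2 h, 428 and 324 at 4 h, 235 and 234 at 8 h and 289 and 237 at 24 h, and both 8 h arrays lay below both controls. At 2 h the probe sets disagreed by over 1 log2 unit, from -0.73 with rc_AA998683_at to 0.35 with rc_AA998683_g_at.

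Hsp90ab1, the constitutive cytosolic Hsp90 that holds kinases and steroid receptors, also had 4 probe sets. Of these, rc_AI236795_s_at had 4042 and 3444 at 0 h, 3107 and 3671 at 2 h, 3106 and 3004 at 4 h, 2554 and 2949 at 8 h and 4241 and 3729 at 24 h. Both arrays lay below both controls at 4 and 8 h, and the log2 changes were -0.29 ± 0.28 and -0.44 ± 0.28 (adjusted p = 0.999 and 0.717, limma). With rc_AI008074_s_at both 8 h arrays also lay below both controls (-0.20), and at 4 h 1 of the 2 did (-0.22). The log2 changes at 4 and 8 h were 0.06 and -0.19 with rc_AI007820_s_at and 0.24 and 0.07 with S45392_at, so 3 of the 4 probe sets had estimates below 0 at 8 h. At 24 h all 4 had estimates above 0 h (0.09 to 0.62) and above 8 h (0.34 to 0.59), and none was called.

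Of the prolyl isomerases that bind FK506, Fkbp1a (FKBP12) had 4 probe sets, all with positive differences between 24 and 8 h. The largest was for rc_AI176170_at, with 576 and 201 at 0 h, 276 and 213 at 2 h, 563 and 293 at 4 h, 385 and 161 at 8 h and 722 and 568 at 24 h. Both 24 h arrays exceeded both 8 h arrays, by 1.36 ± 0.60 log2 units (adjusted p = 0.749 by limma, 0.106 with the block), while control replicate 1 was near the 24 h values. The probe set rc_AI228738_s_at had 0.20 for the same difference.

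**Figure D2:**
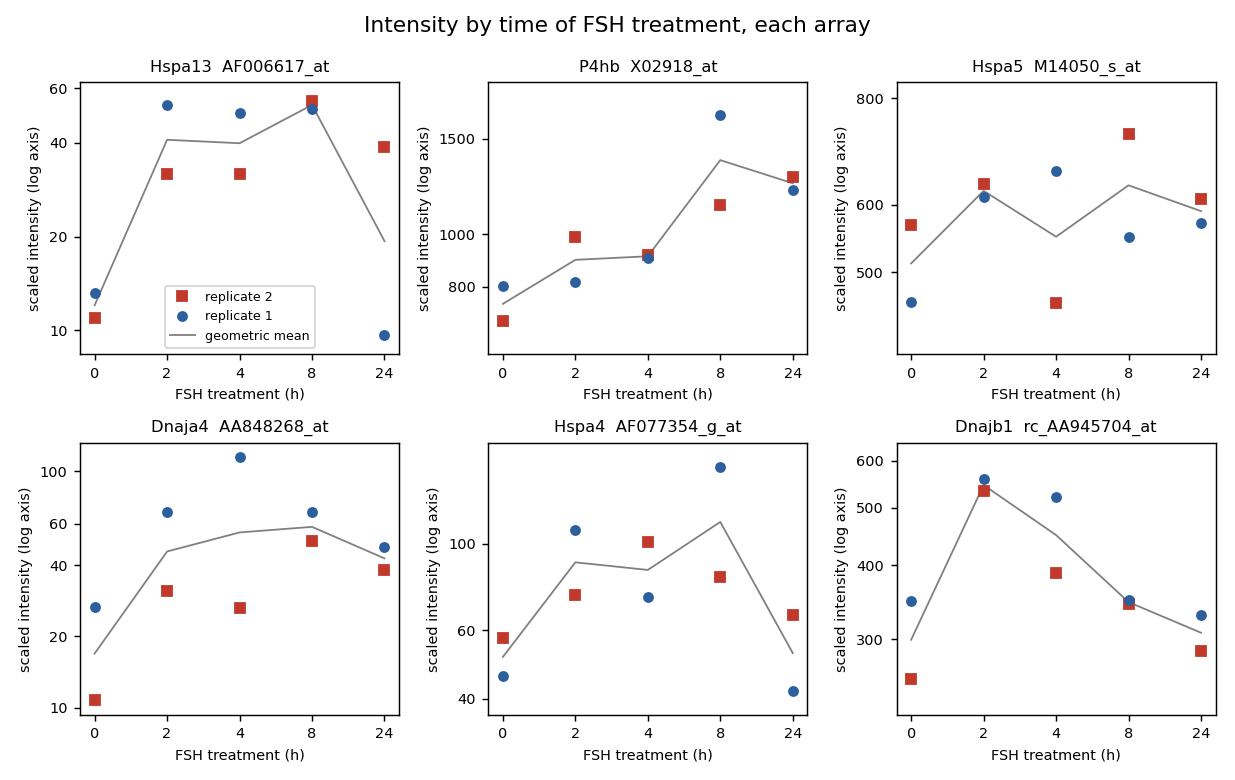
Scaled intensity (vertical, log axis) on each array at 0, 2, 4, 8 and 24 h of FSH treatment (horizontal, evenly spaced times) for 6 chaperone probe sets. Red squares are replicate 2, blue circles replicate 1 and grey lines join the geometric means of the 2 arrays. Hspa13 and Dnajb1 lie above both controls on both arrays at 2 and 4 h, P4hb (X02918_at) at every treated time, and none passed the adjusted threshold. The Hspa13 and Dnaja4 probe sets shown passed the filter on mean intensity through treated arrays.

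In the ER, Hspa13 (Stch) is an atypical microsomal Hsp70. Its probe set AF006617_at had 13.2 and 11.00 at 0 h, 52.7 and 31.8 at 2 h, 49.99 and 31.8 at 4 h, 51.4 and 54.5 at 8 h and 9.66 and 38.8 at 24 h. All 6 arrays from 2 to 8 h were above the controls, both of which were under the floor, as was 24 h replicate 1. With both controls set to the floor, the geometric mean of the 2 arrays was 3.05-fold that floor at 2 h, 2.97-fold at 4 h and 3.94-fold at 8 h. The probe set reached the mean of 31.9 through the 2 to 8 h arrays, its means being 12.1 at 0 h and 24.2 at 24 h, so its test is not read as support. It was not called at any time.

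P4hb (protein disulfide isomerase), which forms disulfide bonds and is a subunit of prolyl 4-hydroxylase, had 801 and 691 at 0 h, 816 and 986 at 2 h, 904 and 917 at 4 h, 1660.0 and 1131 at 8 h and 1208 and 1277 at 24 h with X02918_at. Both arrays at every treated time lay above both controls, those at 8 and 24 h furthest. The log2 change was 0.88 ± 0.32 at 8 h (95% interval 0.16 to 1.60, adjusted p = 0.398 by limma, 0.164 with the block) and 0.74 ± 0.32 at 24 h (adjusted p = 0.996, limma). The other probe sets gave 0.75 (M21476_s_at) and 0.44 (X02918_g_at) at 8 h. For X02918_g_at both 8 h arrays lay above the controls of 545 and 474. Its replicate 1 arrays at 2, 4 and 24 h lay below both controls (433, 388 and 450). Its replicate 2 arrays at those times lay above both (633, 610 and 767). For M21476_s_at the arrays were 219 and 214 at 0 h, 199.9 and 292 at 2 h, 199.6 and 232 at 4 h, 359.8 and 370.4 at 8 h and 237 and 376 at 24 h, with both 8 h and both 24 h arrays above both controls.

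Hspa5 (BiP), the ER Hsp70 and a standard readout of ER stress, had 462 and 568 at 0 h, 612 and 635 at 2 h, 658 and 461 at 4 h, 550.2 and 727 at 8 h and 571 and 609.7 at 24 h with M14050_s_at. Both arrays exceeded both controls at 2 and 24 h but not at 4 or 8 h. The log2 change at 8 h was 0.30 ± 0.33, with an interval of -0.44 to 1.05. The second tested probe set, S63521_i_at, had 28.6 and 85.9 at 0 h, with estimates of 0.58 at 8 h and 0.71 at 24 h. It had 58.1 and 94.7 at 8 h and 73.8 and 89.4 at 24 h, control replicate 1 being its lowest array. Dnajb9 (ERdj4), a BiP co-chaperone and target of the ER stress response, had 19.9 and 98.7 at 0 h, 97.3 and 43.9 at 2 h, 123 and 17.5 at 4 h, 63.5 and 73.5 at 8 h and 40.4 and 86.2 at 24 h, so that the 2 controls alone spanned most of the range and the treated arrays lay between or near them.

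Hsp90b1 (GRP94) had 3 probe sets, with log2 changes of 0.10 to 0.58 at 2 h and 0.25 to 0.64 at 24 h. With AA685903_at the arrays were 146 and 335 at 0 h, 365 and 297 at 2 h, 293 and 229 at 4 h, 269.9 and 350.1 at 8 h and 333 and 355 at 24 h. Control replicate 1 was the lowest of the 10, and control replicate 2 lay among the treated arrays.

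Canx (calnexin), the membrane-bound lectin of glycoprotein folding, was read by 5 probe sets. Its rc_AI235707_g_at had 91.5 and 398 at 0 h, 345 and 177 at 2 h, 277 and 182 at 4 h, 265 and 265 at 8 h and 287 and 349.8 at 24 h, control replicate 1 being the lowest. The probe set rc_AI010725_at had 105 and 217 at 0 h, 279.6 and 142 at 2 h, 326 and 68.7 at 4 h, 257 and 91.5 at 8 h and 331 and 251 at 24 h. With rc_AI010725_at the 24 h arrays were above both controls, at 0.93 ± 0.77 log2 units (95% interval -0.80 to 2.67). All 5 Canx probe sets had positive estimates at 2, 8 and 24 h, but at 2 and 8 h the array numbers went opposite ways for all 5. Their replicate 1 arrays lay above control replicate 1, and their replicate 2 arrays below control replicate 2. With L18889_at the arrays were 228 and 275 at 0 h, 382 and 230 at 2 h and 316 and 246 at 8 h.

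Calr (calreticulin), the soluble partner of calnexin, had 991 and 629 at 0 h, 682 and 696 at 2 h, 846 and 1043 at 4 h, 601 and 851 at 8 h and 1144 and 949 at 24 h with D78308_at, with the 4 h and the 24 h arrays on either side of control replicate 1. Its 3 probe sets had estimates of -0.30 to -0.19 at 2 h and 0.40 to 0.46 at 24 h. Ppib (cyclophilin B), an ER prolyl isomerase, had 1445 and 785 at 0 h, 954 and 1168 at 2 h, 953 and 1059 at 4 h, 846 and 1010.4 at 8 h and 1243 and 1141 at 24 h with rc_AA818487_s_at, every treated array lying between the 2 controls.

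Fkbp2, another ER prolyl isomerase, had both C06598_at arrays below both controls at 2, 8 and 24 h, with log2 changes of -0.17, -0.47 and -0.37. Its other probe set, AA684963_at, gave 0.01, -0.37 and -0.03 at those times, its arrays overlapping the range of the controls. Fkbp11, an isomerase of secretory tissues, had 29.9 and 81.9 at 0 h, 60.1 and 99.2 at 2 h, 34.1 and 78.2 at 4 h, 44.9 and 90.00 at 8 h and 83.1 and 101 at 24 h. Both of its 24 h arrays lay above both controls, by 0.89 ± 0.60 log2 units (adjusted p = 0.996, limma).

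Pdia6 (P5), a disulfide isomerase, had 521 and 491 at 0 h, 538 and 505 at 2 h, 478 and 361 at 4 h, 410.4 and 449 at 8 h and 703 and 565 at 24 h, with both arrays below both controls at 4 and 8 h and above them at 24 h. The disulfide isomerase Pdia3 (ERp57), which works with calnexin, had 511 and 792 at 0 h, 845 and 786 at 2 h, 832 and 756 at 4 h, 866 and 903 at 8 h and 683 and 901 at 24 h with X12355_s_at. Only control replicate 1 lay clearly apart there, below all other arrays.

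Which promoters carry the letters of a stress element was read in RefSeq promoter windows (GRCr8, 250 bases before to 50 after the start), held for 36 of the 41 genes. Dnaja2, Fkbp3, Hspb2, Pdia3 and Pdia6 had no entry. The ER stress element was searched on both strands as CCAAT and CCACG with any 9 bases between them. It was found in 22 of 33469 promoters (0.0657%), 4 of them those of Hspa5, Hsp90b1, Canx and Calr. The matches are shown with up to 20 bases on either side, because these are the classical ER stress genes, and capitals mark the match.
Hspa5, chr3:38452953-38453011, plus strand: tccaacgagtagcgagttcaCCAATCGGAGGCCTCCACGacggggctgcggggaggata
Hsp90b1, chr7:23012327-23012385, minus strand: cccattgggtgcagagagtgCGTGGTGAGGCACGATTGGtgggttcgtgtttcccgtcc
Hsp90b1, chr7:23012431-23012489, minus strand: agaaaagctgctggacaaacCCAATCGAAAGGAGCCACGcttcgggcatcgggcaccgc
Canx, chr10:35158049-35158107, minus strand: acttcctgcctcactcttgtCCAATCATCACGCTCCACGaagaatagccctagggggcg
Calr, chr19:40213117-40213173, plus strand: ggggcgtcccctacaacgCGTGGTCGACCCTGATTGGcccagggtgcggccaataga
The upstream Hsp90b1 match begins 176 bases before the start and the downstream one 72. The downstream one reads on the opposite strand, as does that of Calr. A match is a description of the letters and not a known site. No match means that these letters are not in the window.

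The cAMP response element, TGACGTCA, was found in 1.83% of promoters and in 1 of the 36, that of Hsp90ab1. Its shorter part TGACG, which lies within it, was found in 21.2% of promoters and in 20 of the 36 (55.6%). The Hsp90ab1 match is shown with capitals on it, because FSH acts through cyclic AMP.
Hsp90ab1, chr9:22930223-22930270, plus strand: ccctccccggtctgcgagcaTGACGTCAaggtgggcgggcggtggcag
No Hsp90ab1 probe set was called at any time.

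The heat shock element was searched on both strands as the triplets GAA, TTC and GAA, or TTC, GAA and TTC, with any 2 bases between triplets, forms that can overlap. It was found in 0.798% of promoters and in 4 of the 36 (11.1%), those of Dnaja1, Hsph1, Hspd1 and Hspe1. The Hsph1 match is shown with capitals on it.
Hsph1, chr12:10427312-10427364, plus strand: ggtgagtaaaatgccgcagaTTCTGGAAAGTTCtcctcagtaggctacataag

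Hspd1 (Hsp60) and Hspe1 (Hsp10), which form the mitochondrial folding chamber together, lie head to head on chromosome 9 with starts 290 bases apart. The stretch that both promoter windows hold is 211 bases long and is shown because the heat shock element match of both genes lies in it. Capitals mark 2 overlapping matches.
Hspe1 and Hspd1, chr9:64084077-64084287, plus strand: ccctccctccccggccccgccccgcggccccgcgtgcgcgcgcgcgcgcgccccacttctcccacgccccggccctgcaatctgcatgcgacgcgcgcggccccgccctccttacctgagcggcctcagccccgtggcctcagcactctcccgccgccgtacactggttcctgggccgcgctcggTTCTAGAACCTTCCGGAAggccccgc

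The values of this pair are given by array number, and neither difference between the numbers passed the adjusted threshold. Hspd1 had 555, 508, 489, 696 and 574 on the replicate 2 arrays at 0, 2, 4, 8 and 24 h, against 285, 838, 1070.2, 771 and 650.1 on the replicate 1 arrays with X54793_at. Replicate 2 was lower at 2, 4, 8 and 24 h and higher at 0 h. Hspe1 had 996, 1559, 1604, 1702 and 1447 on the replicate 2 arrays at 0, 2, 4, 8 and 24 h, against 1193, 612, 691, 769.7 and 1050.2 on the replicate 1 arrays with rc_AI170613_at. Replicate 2 was higher at the 4 treated times and lower at 0 h, the opposite of Hspd1. The difference between numbers was -0.24 ± 0.27 for Hspd1 (adjusted p = 0.602) and 0.78 ± 0.25 for Hspe1 (adjusted p = 0.0623, limma). The second probe sets gave -0.55 (Hspd1, rc_AA858640_s_at) and 0.38 (Hspe1, rc_AI170613_g_at).

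Against 0 h, the estimates for Hspd1 were 0.72, 0.87, 0.88 and 0.62 log2 units from 2 to 24 h by X54793_at (95% interval at 8 h -0.20 to 1.97). Both 8 h and both 24 h arrays of X54793_at lay above both controls. The second Hspd1 probe set, rc_AA858640_s_at, gave 0.42, 0.52, 0.44 and 0.49. Its arrays were 124 and 285 at 0 h, 347 and 187 at 8 h and 278 and 250 at 24 h. They overlapped the range of the controls at 8 and 24 h. Hspe1 had -0.16, -0.05, 0.07 and 0.18 with rc_AI170613_at, and 0.31, 0.42, 0.54 and 0.44 with rc_AI170613_g_at.

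Hspa9 (mortalin), the mitochondrial Hsp70 that pulls in imported proteins, was read by 3 probe sets. S75280_s_at had 111 and 156 at 0 h, 195 and 152 at 2 h, 236 and 178 at 4 h, 234 and 315 at 8 h and 120.3 and 279 at 24 h, and both 4 h and both 8 h arrays exceeded both controls. Its log2 change at 8 h was 1.04 ± 0.44 (adjusted p = 0.512, limma). S78556_at gave 0.75 and rc_AA944973_at -0.73 at 8 h, so that the probe sets of this gene differed in sign by over 1 log2 unit at 8 and 24 h.

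Dnaja3 (Tid1), the J-domain partner of Hspa9, had 52.5 and 107 at 0 h, 24.3 and 39.6 at 2 h, 15.6 and 34.2 at 4 h, 36.3 and 70.1 at 8 h and 57.3 and 42.5 at 24 h. Both arrays at 2 and at 4 h lay below both controls. The mean at 4 h, 24.9, was under the filter of 31.9, which the probe set passed through the other times. The log2 change was -1.27 ± 0.58 at 2 h and -1.70 ± 0.58 at 4 h (adjusted p = 0.355 by limma, 0.0960 with the block).

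Probe sets of 1 gene often went different ways. Of the 20 genes with at least 2 tested probe sets, 8, 10, 6 and 8 had estimates of opposite sign at 2, 4, 8 and 24 h. The signs differed by over 1 log2 unit for Hspb1 at 2 h, Hspa9 at 8 h, and Dnajc5 and Hspa9 at 24 h.

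The 11 probe sets under the mean of 31.9 were not tested. They include the only ones of Dnajc17, Dnajc1, Dnajb14, Fkbp1b and the testis-enriched Hspa1l, and their mean intensities were 3.69 to 28.0. Hspa1l (X77209_at) had 10.5 and 8.96 at 0 h, 16.5 and 14.9 at 2 h, 24.5 and 20.3 at 4 h, 8.54 and 11.5 at 8 h and 5.93 and 7.76 at 24 h, both 4 h arrays being the highest. With no filter it was called at 4 h (adjusted p = 0.0494, limma), both controls being under the floor.

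The array numbers were compared in turn. Replicate 2 against replicate 1, with time as a term, gave 9 of 71 members past the adjusted threshold (12.7%, background 15.2%), 7 higher in replicate 2 (background 6.53%) and 2 lower (background 8.65%). The germ cell, Sertoli and RNA integrity values given above also differed by number, and their part in these results was not tested. In the same fit 6 of 12 germ cell probe sets were higher and 7 of 15 Sertoli probe sets lower in replicate 2.

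Hspa1a was lower in replicate 2, with 61.3, 83.7, 84.1, 67.6 and 29.5 on the replicate 2 arrays at 0, 2, 4, 8 and 24 h, against 78.6, 172, 275, 171 and 141 on the replicate 1 arrays. Replicate 2 was lower at every time, by -1.34 ± 0.26 log2 units over the 5 pairs (adjusted p = 0.00984, limma). The other fall was that of Fkbp1a with rc_AI176170_at (-0.89, adjusted p = 0.0229), while its rc_AI228738_s_at gave -0.08.

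Cct6a, a subunit of the CCT ring that folds actin and tubulin, rose in replicate 2, with 124, 67.6, 82.8, 106 and 62.7 on the replicate 2 arrays at 0, 2, 4, 8 and 24 h, against 57.7, 27.5, 34.2, 26.5 and 46.4 on the replicate 1 arrays. All 5 replicate 2 arrays lay above all 5 replicate 1 arrays, by 1.22 ± 0.25 log2 units (adjusted p = 0.0117, limma). Cct3, another subunit of the ring, rose by 0.84 ± 0.25 (adjusted p = 0.0491), though its control arrays went the other way. Fkbp4 rose with rc_AI136977_g_at (0.93, adjusted p = 0.0155) and rc_AI136977_at (0.65, adjusted p = 0.0355), and its rc_AI231547_at gave 0.16.

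Pdia4 (ERp72), an ER disulfide isomerase, had 243, 210.5, 159, 154 and 201 on the replicate 2 arrays at 0, 2, 4, 8 and 24 h, against 98.9, 117, 106, 103 and 133 on the replicate 1 arrays. The 2 sets of arrays did not overlap, and the difference was 0.78 ± 0.18 (adjusted p = 0.0188, limma). Fkbp11 rose by 0.93 ± 0.22 (adjusted p = 0.0223), and Hspa9 by 1.24 ± 0.32 with rc_AA944973_at (adjusted p = 0.0310), where S78556_at gave -0.52. Of all members, 5 had every replicate 2 array above every replicate 1 array (background 5.47%) and 1 had every one below (background 5.09%).

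These 9 calls depended on single arrays. Leaving out control replicate 1 or control replicate 2 gave 20. Leaving out 2 h replicate 1 gave 4 and 2 h replicate 2 gave 3, while 4 h replicate 1 gave 2 and 4 h replicate 2 gave 1. Either 8 h array left 1, 24 h replicate 1 left 5 and 24 h replicate 2 left 4, and a test with no filter on low values left 1.

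**Figure D3:**
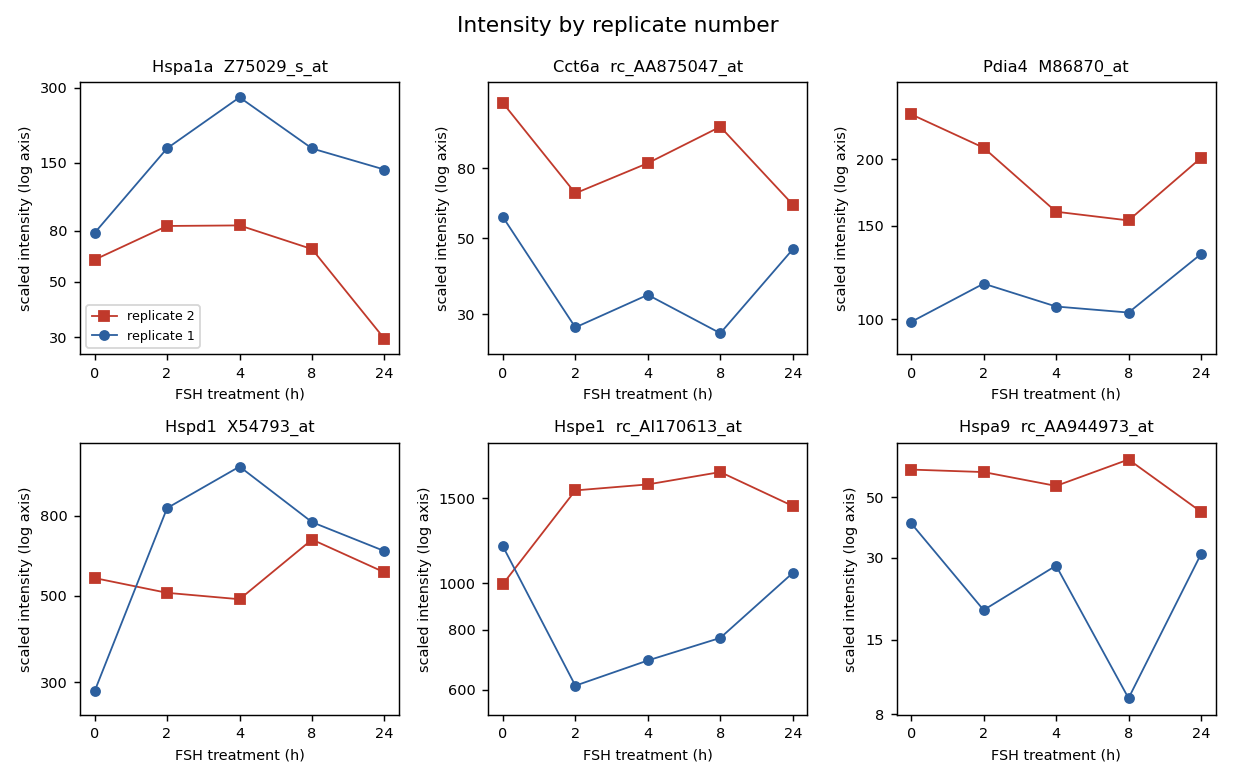
Scaled intensity (vertical, log axis) of 6 chaperone probe sets at 0, 2, 4, 8 and 24 h of FSH treatment (horizontal, evenly spaced times), with replicate 2 in red squares and replicate 1 in blue circles, 1 array a point. Red lies above blue at every time for Cct6a, Pdia4 and Hspa9 and below it for Hspa1a, while Hspd1 and Hspe1 are opposite to each other at every time.

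**Figure D4:**
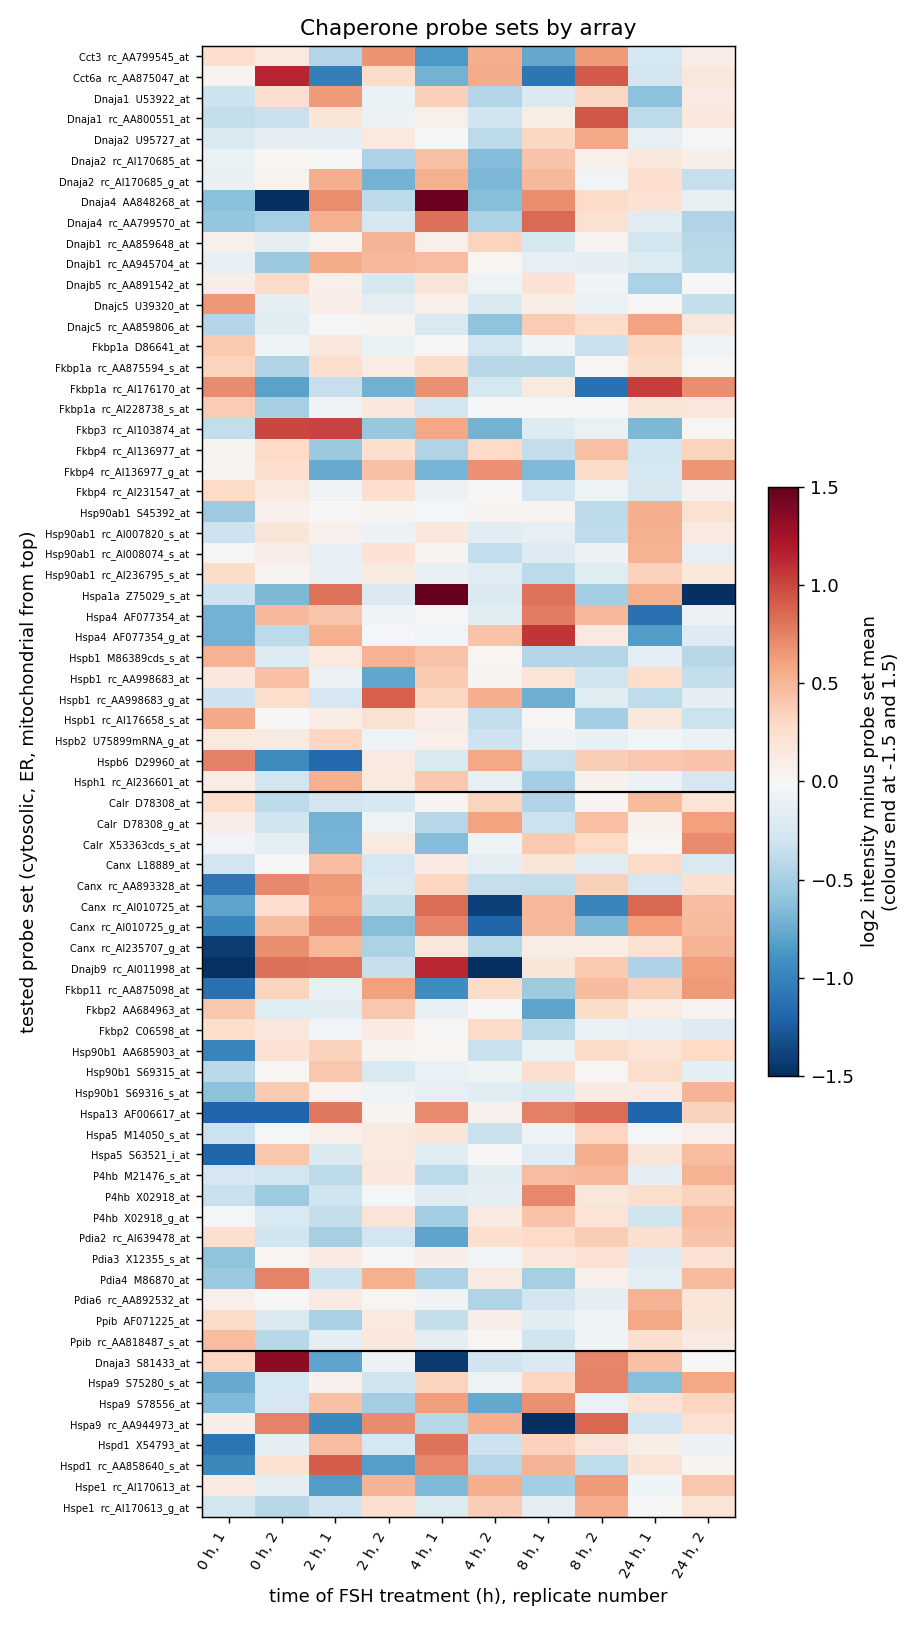
Log2 intensity minus the probe set's mean over the 10 arrays (colour) for the 71 tested chaperone probe sets (rows, by compartment and gene) on each array (columns, by time in h and replicate number). Control replicate 1, the first column, is the lowest array for 11 of the 27 ER rows.

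Other genes of the folding and stress pathways were counted from a list of 55 that holds no member, of which 24 genes (32 probe sets) were tested. None was called at any time without the block. At an unadjusted p under 0.05 there were 1, 2, 1 and 1 of the 32 at 2, 4, 8 and 24 h (background 4.57%, 7.75%, 9.3% and 4.6%). With the block the 1 probe set called was Asns, asparagine synthetase, an amino acid response gene. It was called at 4 h (background 2.95%), at 8 h (2.68%), between 24 and 8 h (1.15%) and in the F test (3.22%). Asns (U07201_at) had 157 and 64.3 at 0 h, 255 and 105 at 2 h, 672 and 324 at 4 h, 1501 and 568 at 8 h and 350.1 and 168 at 24 h, both arrays at 4 and 8 h above both controls, with log2 changes of 2.22 at 4 h and 3.20 at 8 h (adjusted p = 0.00140 and 0.000148 with the block, limma). Ddit3 (CHOP), a marker of prolonged ER stress, had 58.2 and 88.7 at 0 h, 168 and 88.7 at 2 h, 74.99 and 79.7 at 4 h, 34.8 and 79.2 at 8 h and 64.1 and 246 at 24 h, with the 2 numbers disagreeing in order between times. In replicate 2 against replicate 1, 2 of the 32 rose (background 6.53%), Trap1, the mitochondrial Hsp90, and Timm44, of the import motor. The 5 that fell (background 8.65%) were both probe sets of Ppp1r15a (GADD34) and 1 each of the ER chaperone Hyou1, the Hsp70 to Hsp90 adaptor Stip1 and Asns.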

How the data were processed

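Gene expression was measured on 10 arrays of a rat oligonucleotide platform. The authors' deposited series table gives 1 linear intensity per probe set and array. How it was made is not given in the sources used here, but the mean without the lowest and highest 2% of values was 125.2 to 125.3 on every array, as a scaling to 1 target would leave it. Arrays were scaled further to a common 75th percentile (factors 0.911 to 1.13), and values under an eighth part of it were set to that floor before log2. Of 8740 probe sets (59 control probe sets left out), 7006 were annotated to 1 gene, 308 to several and 1426 to none. All 82 members matched RefSeq GRCr8 by gene ID. limma 3.58.1 (R 4.3.3) was fitted with an intensity trend over the 4439 probe sets with a mean at or over the pooled median, with 1 mean per time. The numbers pair the arrays: deviations from the group means correlated at 0.110 to 0.698 in all 10 pairs of times, so the fit with a replicate block is given too. The 2 h array with no number in its title was taken as replicate 1, because the other carries number 2. Arrays have no read depth, and 2 arrays a time limit the precision. Members and gene lists were chosen with earlier results of these data known. Described members were those called, the brightest 3 genes of each compartment, the 3 largest differences each way per time among probe sets whose arrays do not overlap the controls, fixed stress genes and genes whose probe sets disagree. Further probe sets of these genes, and Dnaja1, Pdia3 and Asns, were described after their values were seen. Alternatives were the deposited scale, quantile normalization, other floors and filters, no trend, the block and leaving out each array.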

Additional observations from a re-analysis of the deposited data

Results flagged for a closer look

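Pdia6 (rc_AA892532_at), an ER disulfide isomerase, was singled out because every array moved one way at some times and the other way at another. Its log2 change was -0.28 at 4 h and -0.24 at 8 h, with both arrays below both controls, and 0.32 at 24 h, with both above. The difference between the 24 h and the 8 h change, which is the comparison of 24 with 8 h, was 0.55 ± 0.31 (adjusted p = 0.904, limma).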

How the results depend on the processing

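The count of 0 called chaperone probe sets at 2 h, 8 h, 24 h, between 24 and 8 h and in the F test held under every alternative run, and leaving out 1 array gave 0 to 0 for each of them and for 4 h. The exception at 4 h was the setting with no filter on low values, which called 1, Hspa1l, a probe set that is not tested otherwise. The replicate block changed no member's call at any time: the counts stayed at 0, and the lowest adjusted p of a member with the block was 0.0960, for Dnaja3 at 4 h. Replicate 2 against replicate 1 gave 9 called, 1 to 20 when 1 array was left out, and 1 with no filter, which also tests 8740 probe sets in place of 4439. The deposited scale and quantile normalization gave 11 each. The cause of these moves was not tested. Across 2 arrays a time, the spread between arrays limits what can be seen, and dim probe sets are limited by the floor.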
